A study of Mus musculus with 14 samples.

Results

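The genes described here are the Foxo transcription factors Foxo1, Foxo3 and Foxo4, the muscle ubiquitin ligase genes Fbxo32, Trim63 and Fbxo30, and 4 genes tied to the same programme, Klf15, Eif4ebp1, Bnip3 and Map1lc3a. They were chosen by name as factors and effectors of muscle wasting, and they are 10 of the 54532 genes in the deposited table. All 10 passed the filter on low counts, which left 15458 genes for testing. Foxo proteins are kept out of the nucleus when insulin and growth factor signalling through Akt is strong, and they enter it when that signalling is weak. In skeletal muscle they are known to switch on genes of protein breakdown, above all the ubiquitin ligases atrogin-1 and MuRF1, together with genes of autophagy. Glucocorticoids act on several of the same genes through the glucocorticoid receptor.

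Polyadenylated RNA of skeletal muscle from male FVB/N mice was sequenced in 14 libraries, to compare the effect of a western diet in mice with and without overexpression of c-Myc in endothelial cells. The study's methods name soleus and gastrocnemius as the muscles, and the labels do not say which muscle a library came from. The overexpressing mice (OE) carried a Tet-O-Myc transgene for human c-Myc and a Cdh5-tTA transactivator, whose promoter is active in endothelial cells, and RNA of the transgene was not measured here. The controls (CT) were littermates with Tet-O-Myc and no tTA. The transgene is Y-linked, and all mice were male. All mice were raised on doxycycline, which keeps the transgene silent, and it was withdrawn at 4 to 6 weeks of age. They then ate a control diet (CTD) or a western diet (WD) for 20 weeks by the labels and the methods, whereas the results of the study give 10 weeks for the transcriptome. By the labels there were 3 libraries of CT on control diet (CT-CTD), 3 of CT on western diet (CT-WD), 4 of OE on control diet (OE-CTD) and 4 of OE on western diet (OE-WD). A legend of the study gives 3 samples for control diet and 4 for western diet, which these labels do not match. An exchange of the names CT-WD and OE-CTD would make the legend and the labels match and would turn each comparison of a pair of groups into another one. With the same values, OE-WD against OE-CTD would then compare OE with CT on western diet, and OE-WD against CT-WD would compare the diets in OE. Likewise CT-WD against CT-CTD would compare OE with CT on control diet, OE-CTD against CT-CTD would compare the diets in CT, and the difference of the diet responses would stay as it is. The doubt about these names does not rest on that legend alone. The study's text gives Zbtb16, a gene described below, as higher in OE than in CT on western diet. By the labels its mean was 100.2 CPM in OE-WD, 144.7 CPM in CT-WD and 42.7 CPM in OE-CTD. The text also gives Foxo1 and Angptl4 as lower in OE muscle without naming the groups compared. By the labels both had lower means in OE-WD than in CT-WD. With the names exchanged, the same means would compare the diets in OE. Foxo1 and Angptl4 thus do not tell the namings apart. Which names are right was not settled here, so every group, diet and genotype below is as labelled, and each such reading depends on the labels.

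The number after a group's name is the replicate number of the label. In the sample names, 3 of the 4 OE-CTD libraries share a number, the other has a different one, all 4 OE-WD libraries share another, and each CT library has a number of its own. What these numbers stand for is not stated, and in OE they cannot be told apart from the diets. CT-CTD 1 and CT-WD 1 have neighbouring numbers, and the other 4 CT libraries have a run of numbers of their own. CT-CTD 1 and CT-WD 1 also stood apart from the rest of their groups in marker sums, with 20.3 and 47.0 FPKM for epidermal markers against 2.44 to 5.73 in the other CT libraries, 234 and 190.03 FPKM for adipocyte markers against 84.6 to 119, and 50.7 and 82.4 FPKM for macrophage markers against 28.47 to 42.9. Many calls below turn on CT-WD 1, and the part of these markers in them was not tested. Nothing in the labels says that the libraries of a group came from separate animals, so the p-values measure the spread between these samples. Between libraries of a group, the chi-square of the counts per degree of freedom was 7.76 to 10.5 among OE-CTD 1 to 3, which share a number, and 36.3 to 42.4 between them and OE-CTD 4. It was 8.46 to 15.1 among OE-WD 1 to 3 and 38.4 to 42.4 between them and OE-WD 4, although all 4 share a number, and 16.5 to 50.3 within the CT groups. Libraries 1 to 3 of each OE group were thus closer to each other than CT libraries were, and n counts libraries, not animals. Counted reads per library were 24101226 to 25054855 for CT-CTD, 21833839 to 26518734 for CT-WD, 22083340 to 28519159 for OE-CTD and 22033140 to 27698046 for OE-WD. Counts of the 10 genes ran from 311 to 21590 in a library, so none was near the limit of detection. OE-CTD 4 and OE-WD 4 stood apart from the other libraries, with 14.9% and 14.5% of their counts on mitochondrial genes against 9.66% to 12.8% elsewhere. Their TMM scaling factors were 0.888 and 0.899, against 0.945 to 1.07 elsewhere. Levels of a gene across libraries are given as CPM, which are counts scaled to a common library size with TMM factors, and levels between genes as the authors' FPKM, which divide by gene length.

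Among the 10 genes the level per length spanned a wide range. In CT-CTD the mean was 177 ± 8.39 FPKM (SD, n = 3) for Map1lc3a, 123 ± 14.4 for Bnip3, 115 ± 14.7 for Trim63, 90.3 ± 14.9 for Fbxo32 and 66.6 ± 7.32 for Foxo4. It was 24.6 ± 0.823 FPKM (SD, n = 3) for Eif4ebp1, 15.4 ± 5.30 for Klf15, 3.94 ± 0.629 for Foxo3, 3.13 ± 0.279 for Fbxo30 and 2.93 ± 0.760 for Foxo1. Within these libraries the ranges overlapped between Bnip3 and Trim63, between Trim63 and Fbxo32, between Fbxo32 and Foxo4, and among Foxo3, Fbxo30 and Foxo1. The other neighbours in this order did not overlap. In CT-WD the highest mean was that of Trim63, with 285 ± 114 FPKM (SD, n = 3), beside 191 ± 50.2 for Map1lc3a. Foxo4 thus had far more RNA per length than Foxo1 and Foxo3 in every group, with group means of 63.9 to 67.0 FPKM.

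**Figure D1:**
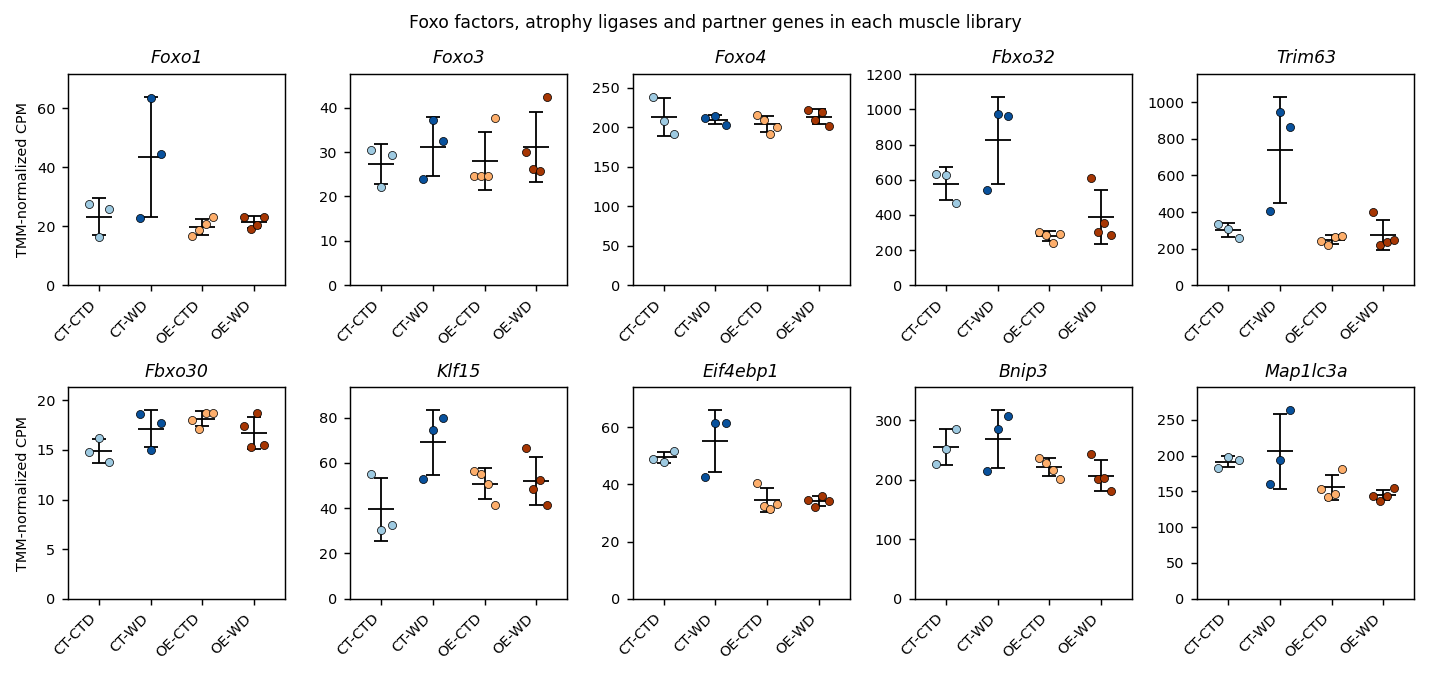
Level of each of the 10 genes in every library, in TMM-normalized CPM on a linear axis from 0, by group. Points are libraries, and the bars show the mean and the SD of each group (n = 3 in CT, n = 4 in OE). CT-WD 2 and CT-WD 3 stand above the other libraries for Foxo1 (63.4 and 44.6 CPM), Trim63 (948 and 863 CPM) and Fbxo32 (976 and 959.8 CPM), and the OE libraries lie low for Eif4ebp1 (31.3 to 40.6 CPM).

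Foxo1 encodes a forkhead factor that responds to insulin and to fasting (ENSMUSG00000044167, protein coding, mm10 chromosome 3, 52268336 to 52353221, plus strand). Its level was 27.6, 16.2 and 26.0 CPM across CT-CTD 1 to 3 and 22.7, 63.4 and 44.6 CPM across CT-WD 1 to 3. It was 16.5, 18.7, 20.7 and 23.1 CPM across OE-CTD 1 to 4 and 23.1, 19.0, 20.4 and 23.1 CPM across OE-WD 1 to 4. High values were thus limited to CT-WD 2 and CT-WD 3, while CT-WD 1 lay among the libraries of the other groups and both OE groups kept within a narrow band. From control to western diet in CT the log2 fold change was 0.90 (standard error 0.27, unadjusted p = 0.00461, adjusted p = 0.507 in edgeR's quasi-likelihood test). Between OE-WD and CT-WD it was -1.02 (standard error 0.25, unadjusted p = 0.000965, adjusted p = 0.0694 in the same test), with means of 21.4 ± 2.03 CPM (SD, n = 4) and 43.6 ± 20.4 CPM (SD, n = 3). Neither passed the adjusted level of 0.05, and both did without CT-WD 1, with adjusted p-values of 0.022 and 0.00184. Without CT-WD 2 the log2 fold changes were instead 0.53 and -0.65, and neither passed. With diet in CT it also passed without the filter on low counts (0.0145), in a range up to 0.981. Between OE-WD and CT-WD the adjusted p ran from 0.000373 without the filter on low counts to 0.566 with the replicate number as a block, and it was 0.00505 with DESeq2. The fit with that block holds only the groups compared and the numbers that both have, so between OE and CT it also leaves out the replicate numbered 4, and these changes were not separated. The diet response differed between OE and CT by -0.78 on the log2 scale (unadjusted p = 0.0458, adjusted p = 0.842 in edgeR). This difference was -0.41 without CT-WD 2 and -1.10 without CT-WD 1. In OE, the log2 fold change with diet was 0.12 (adjusted p = 0.9999), and on control diet OE differed from CT by -0.24 (adjusted p = 0.719).

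Foxo3, the family member best known for driving atrogin-1 and autophagy genes in muscle (ENSMUSG00000048756, chromosome 10, 42181841 to 42276755, minus strand), had 22.1 to 30.6 CPM in CT-CTD and 24.0 to 37.2 CPM in CT-WD. It had 24.7, 24.7, 24.6 and 37.7 CPM across OE-CTD 1 to 4 and 30.1, 26.1, 25.7 and 42.5 CPM across OE-WD 1 to 4. The highest values of both OE groups were in the replicates numbered 4, the libraries with the highest mitochondrial share, and the part of that share in them was not tested. Log2 fold changes of Foxo3 lay between -0.00 and 0.19 in the 4 comparisons, with adjusted p-values from 0.921 to 0.9999. Foxo4 (ENSMUSG00000042903, chromosome X, 101254528 to 101260873, plus strand), a further forkhead factor under the control of Akt, was the steadiest of the 10 genes, with 192 to 238 CPM over the 14 libraries. Its log2 fold changes lay between -0.06 and 0.06, and the 95% intervals of the 4 comparisons reached no further than -0.24 and 0.23. For Foxo3 the intervals reached from -0.44 to 0.65, which leaves room for differences that 3 or 4 libraries a group did not resolve.

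Fbxo32 encodes atrogin-1, an F-box protein that gives an SCF ubiquitin ligase its substrates in wasting muscle (ENSMUSG00000022358, chromosome 15, 58175879 to 58214932, minus strand). Its level was 632, 629 and 469 CPM across CT-CTD 1 to 3 and 539.6, 976 and 959.8 CPM across CT-WD 1 to 3. It was 303, 288, 241 and 293 CPM across OE-CTD 1 to 4 and 611, 302, 355 and 285 CPM across OE-WD 1 to 4. Each OE-CTD library was below each CT-CTD library, and 3 of the 4 OE-WD libraries were below every CT library, whereas OE-WD 1 reached the range of CT. Fbxo32 fell by 1.04 on the log2 scale in OE-CTD relative to CT-CTD (standard error 0.24, 95% interval -1.55 to -0.53, adjusted p = 0.0345 in edgeR), to 0.487 of the level, with means of 577 ± 93.2 CPM in CT (SD, n = 3) and 281 ± 27.7 CPM in OE (SD, n = 4). This call was lost without CT-CTD 1 (adjusted p = 0.0811), CT-CTD 2 (0.131), CT-CTD 3 (0.0724), OE-CTD 1 (0.0687), OE-CTD 2 (0.0913), OE-CTD 3 (0.103) or OE-CTD 4 (0.0505), and its adjusted p was 0.0623, 0.0579 and 0.145 in limma's 3 fits to FPKM, within a range of 7.58e-05 to 0.145 over all alternatives other than leaving out a library.

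On western diet Fbxo32 averaged 825 ± 247 CPM in CT (SD, n = 3) and 388 ± 151 CPM in OE (SD, n = 4). The log2 fold change of -1.09 (standard error 0.24, unadjusted p = 0.000374, adjusted p = 0.0511 in edgeR) was about as large as on control diet and missed the adjusted level. It passed without CT-WD 1 (adjusted p = 0.00462) and without OE-WD 1 (0.00855), and also with DESeq2 (0.0131) and without the filter on low counts (7.28e-05), in a range that reached 0.566 with the replicate block. With diet, Fbxo32 differed by 0.52 in CT (standard error 0.26, unadjusted p = 0.0644) and by 0.47 in OE (standard error 0.22, unadjusted p = 0.0556), with adjusted p-values of 0.729 and 0.9999 in edgeR. Without OE-WD 1 the value in OE was 0.16. The difference of the diet responses was -0.05 (95% interval -0.78 to 0.68, adjusted p = 0.991).

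Trim63 encodes MuRF1, a RING-finger ubiquitin ligase of the sarcomere that marks myofibrillar proteins for breakdown (ENSMUSG00000028834, chromosome 4, 134315120 to 134329629, plus strand). Its level was 335, 305 and 259 CPM across CT-CTD 1 to 3 and 407, 948 and 863 CPM across CT-WD 1 to 3. It was 239.8, 218, 264 and 270.1 CPM across OE-CTD 1 to 4 and 398, 218, 235 and 245 CPM across OE-WD 1 to 4. Every CT-WD library was above every library of the other groups, with CT-WD 1 just above OE-WD 1 and the other CT-WD libraries far above it. On western diet Trim63 fell by 1.43 on the log2 scale in OE relative to CT (standard error 0.24, 95% interval -1.94 to -0.92, adjusted p = 0.0276 in edgeR), to 0.371 of the level, with means of 739.6 ± 291 CPM in CT (SD, n = 3) and 274 ± 83.5 CPM in OE (SD, n = 4). With each library left out in turn, the log2 fold change stayed between -1.72 and -1.21. The call was lost without CT-WD 2 (adjusted p = 0.0813), CT-WD 3 (0.112), OE-WD 2 (0.0883), OE-WD 3 (0.0753) or OE-WD 4 (0.0683). It was also lost when only OE-WD and CT-WD were fitted (0.154), with the replicate block (0.566), with limma on log2(FPKM + 0.1) (0.0531) or without a filter (0.105), and without both replicates numbered 4 (0.0803), in a range that began at 5.62e-07 without the filter on low counts.

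With diet in CT, Trim63 had 300 ± 38.2 CPM (SD, n = 3) on control diet and 739.6 ± 291 CPM (SD, n = 3) on western diet. The log2 fold change was 1.30 (standard error 0.26, 95% interval 0.74 to 1.86), a 2.47-fold difference with an unadjusted p of 0.000156 and rank 7 of the 15458 genes by p. It did not pass the adjusted level in edgeR (adjusted p = 0.277). It passed in DESeq2 (0.000933), without the filter on low counts (9.35e-05) and without CT-WD 1 (0.00545), in a range up to 0.981 when only these 2 groups were fitted. In OE the diet comparison gave 0.14 (standard error 0.22, adjusted p = 0.9999), which was -0.09 without OE-WD 1. A value far from 0 in CT and near 0 in OE does not show that the responses differ. The test of that difference gave -1.16 (standard error 0.34, unadjusted p = 0.00403, adjusted p = 0.825 in edgeR), and its adjusted p was 0.034 without the filter on low counts, in a range of 0.034 to 0.897 over the alternatives other than leaving out a library. On control diet OE and CT differed by -0.27 (adjusted p = 0.647), and the gap between this value and the -1.43 on western diet is that same difference.

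Fbxo30 encodes an F-box ubiquitin ligase also called MUSA1, which BMP signalling is known to hold down in muscle (ENSMUSG00000047648, chromosome 10, 11281330 to 11298052, plus strand). It had few reads beside the other ligase genes, with 14.8, 16.2 and 13.7 CPM across CT-CTD 1 to 3 and 18.7, 15.0 and 17.7 CPM across CT-WD 1 to 3. It had 18.0, 17.1, 18.8 and 18.7 CPM across OE-CTD 1 to 4 and 17.4, 15.3, 18.7 and 15.5 CPM across OE-WD 1 to 4. The values of CT-CTD lay at the low end, and those of OE-CTD were all above them. OE against CT on control diet gave 0.28 on the log2 scale (standard error 0.11, unadjusted p = 0.0169, adjusted p = 0.192 in edgeR), which did not pass, and its sign was opposite to that of Fbxo32. In the other comparisons it was 0.20 in CT with diet, -0.12 in OE with diet and -0.04 between OE-WD and CT-WD, with adjusted p-values of at least 0.778.

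Klf15 encodes a zinc-finger factor that glucocorticoids raise and that controls amino acid breakdown in muscle (ENSMUSG00000030087, chromosome 6, 90462576 to 90475238, plus strand). Its level was 55.3, 30.4 and 32.6 CPM across CT-CTD 1 to 3 and 52.9, 74.3 and 80.0 CPM across CT-WD 1 to 3. It was 56.4, 55.2, 50.5 and 41.2 CPM across OE-CTD 1 to 4 and 66.5, 48.6, 52.4 and 41.3 CPM across OE-WD 1 to 4. CT-WD 2 and CT-WD 3 were again the highest libraries, CT-CTD 2 and CT-CTD 3 the lowest, and the OE libraries lay between them. With diet in CT the log2 fold change was 0.81 (standard error 0.22, unadjusted p = 0.00231, adjusted p = 0.427 in edgeR), and the adjusted p was 0.008 without the filter on low counts, in a range of 0.008 to 0.981. The diet response in OE was 0.04 (adjusted p = 0.9999), and the difference of both responses was -0.77 (standard error 0.29, unadjusted p = 0.0182, adjusted p = 0.834). Between OE and CT the log2 fold change was -0.40 on western diet (adjusted p = 0.333) and 0.37 on control diet (adjusted p = 0.427). The value on control diet was 0.21 without CT-CTD 2 and 0.68 without CT-CTD 1.

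Eif4ebp1 encodes 4E-BP1, which binds eIF4E and holds back cap-dependent translation until mTORC1 phosphorylates it (ENSMUSG00000031490, chromosome 8, 27260329 to 27276674, plus strand). Its level was 48.9, 48.0 and 51.6 CPM across CT-CTD 1 to 3 and 42.7, 61.4 and 61.5 CPM across CT-WD 1 to 3. It was 40.6, 32.5, 31.3 and 33.3 CPM across OE-CTD 1 to 4 and 34.7, 32.0, 36.1 and 34.3 CPM across OE-WD 1 to 4. All 8 OE libraries were below all 6 CT libraries, and the diets overlapped within each genotype. Eif4ebp1 was the gene of the 10 that passed in both comparisons of OE with CT. On western diet it fell by 0.69 on the log2 scale (standard error 0.12, adjusted p = 0.0276 in edgeR), with means of 55.2 ± 10.9 CPM in CT (SD, n = 3) and 34.3 ± 1.68 CPM in OE (SD, n = 4). On control diet it fell by 0.52 (standard error 0.12, adjusted p = 0.0318), with means of 49.5 ± 1.88 CPM in CT (SD, n = 3) and 34.4 ± 4.22 CPM in OE (SD, n = 4). These comparisons share no library.

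Both calls of Eif4ebp1 depended on single libraries while the direction did not change. On western diet the call was lost without CT-WD 2 (adjusted p = 0.0951), CT-WD 3 (0.123), OE-WD 2 (0.0883), OE-WD 3 (0.063) or OE-WD 4 (0.0683), and on control diet without CT-CTD 1 (0.0581), CT-CTD 2 (0.0916), CT-CTD 3 (0.144), OE-CTD 2 (0.0947), OE-CTD 3 (0.0926) or OE-CTD 4 (0.0527). The log2 fold change of Eif4ebp1 stayed between -0.84 and -0.60 on western diet and between -0.61 and -0.48 on control diet with each library left out in turn. Over the other settings the adjusted p ran from 9.33e-05 to 0.566 on western diet, with the highest value for the replicate block, 0.130 when only those groups were fitted, 0.0924 in limma without a filter and 0.0791 without both replicates numbered 4. On control diet it ran from 0.00383 to 0.114, and it was above 0.05 in limma on log2(FPKM + 1) (0.0540) and log2(FPKM + 0.1) (0.05002), without a filter on FPKM (0.114) and without both replicates numbered 4 (0.0572). The call there also ends with a fold limit of 1.5 beside the adjusted level, since OE-CTD had 0.695 of the level of CT-CTD. With diet the log2 fold change was 0.16 in CT (adjusted p = 0.876) and -0.01 in OE (adjusted p = 0.9999), and the responses differed by -0.16 (adjusted p = 0.937).

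Bnip3 encodes a mitochondrial outer membrane protein that recruits autophagosomes and is a known Foxo3 target (ENSMUSG00000078566, chromosome 7, 138890836 to 138909519, minus strand). It had 226, 251 and 286 CPM across CT-CTD 1 to 3, 214, 286 and 306 CPM across CT-WD 1 to 3, 236, 228, 217 and 202 CPM across OE-CTD 1 to 4 and 243, 201, 202 and 180.3 CPM across OE-WD 1 to 4. The groups overlapped in all 4 comparisons, with the lowest values in OE. OE against CT on western diet gave -0.38 on the log2 scale (standard error 0.13, unadjusted p = 0.00883, adjusted p = 0.153 in edgeR), and it passed without CT-WD 1 (adjusted p = 0.0152). On control diet OE and CT differed by -0.20 (adjusted p = 0.478). Diet gave 0.08 in CT and -0.10 in OE (adjusted p-values of 0.956 and 0.9999).

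Map1lc3a encodes LC3A, a ubiquitin-like protein that is joined to lipid on the autophagosome membrane (ENSMUSG00000027602, chromosome 2, 155276297 to 155278073, plus strand). It had 183, 198 and 194.5 CPM across CT-CTD 1 to 3, 159.8, 194.5 and 264 CPM across CT-WD 1 to 3, 153, 142, 147 and 181 CPM across OE-CTD 1 to 4 and 144, 137, 143 and 154 CPM across OE-WD 1 to 4. Its OE libraries lay below the CT libraries on each diet, with OE-CTD 4 close to CT-CTD 1. On western diet the log2 fold change between OE and CT was -0.51 (standard error 0.13, unadjusted p = 0.00138, adjusted p = 0.0802 in edgeR). It passed without CT-WD 1 (adjusted p = 0.00502), with DESeq2 (0.0142) and without the filter on low counts (0.00971), in a range up to 0.566 with the replicate block, and without CT-WD 3 the log2 fold change was -0.29. On control diet it was -0.30 (unadjusted p = 0.0362, adjusted p = 0.270), with an adjusted p of 0.0349 in the fit with the replicate block and up to 0.509 over the alternatives other than leaving out a library. The log2 fold change in that fit, which lacks OE-CTD 4, was -0.38, as it was without OE-CTD 4 and no block, where it did not pass. With diet it was 0.10 in CT and -0.11 in OE (adjusted p-values of 0.941 and 0.9999).

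**Figure D2:**
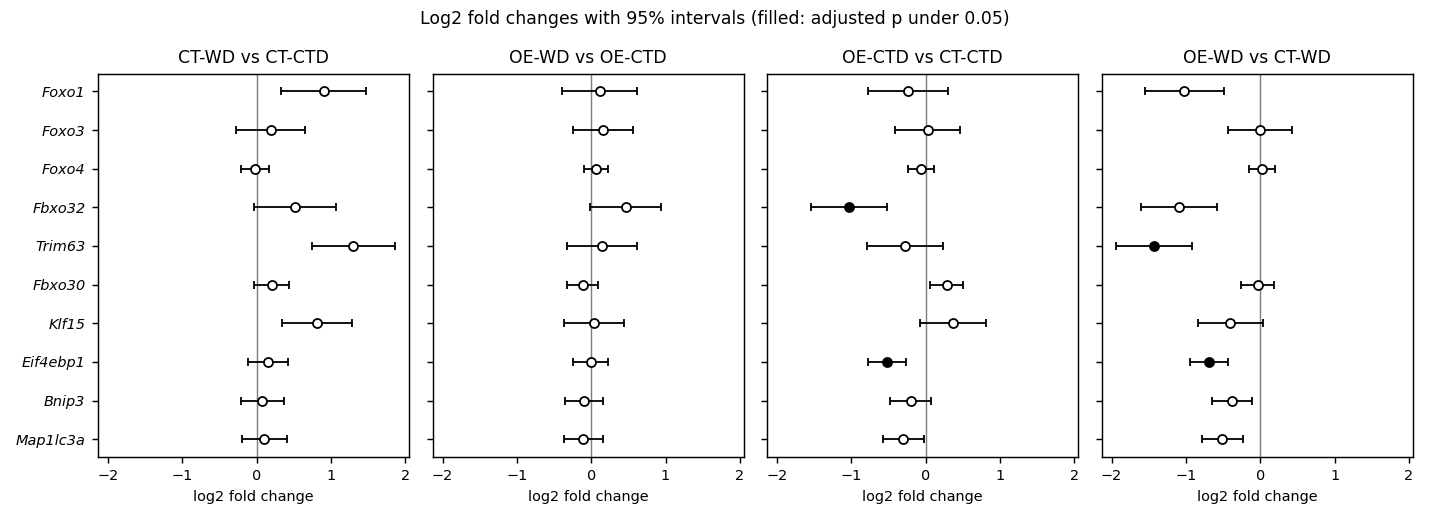
Log2 fold change of each gene in the 4 comparisons of a pair of groups, with 95% intervals from edgeR's quasi-likelihood fit. Filled points mark an adjusted p under 0.05, which were Trim63 (-1.43) and Eif4ebp1 (-0.69) in OE-WD against CT-WD, and Fbxo32 (-1.04) and Eif4ebp1 (-0.52) in OE-CTD against CT-CTD. The points of Foxo3 and Foxo4 lie between -0.06 and 0.19.

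Taken by comparison, the western diet in CT gave 0 of the 10 genes at an adjusted p under 0.05 in edgeR, where 0% of all 15458 genes passed. DESeq2 called 1 of them, Trim63, and 29 genes in all. At an unadjusted p under 0.05 there were 3 of the 10, Foxo1, Trim63 and Klf15, all higher on western diet, beside 7.28% of all genes. The libraries of both groups did not overlap for 1 of the 10, Trim63, and for 9.63% of all genes. The median log2 fold change of the 10 genes was 0.20, and that of all genes was 0.01. These tests, and those of each gene above, did not pair the libraries, although a check of same-number libraries took the CT numbers as paired. With the replicate number as a block, 0 of the 10 genes passed the adjusted level in edgeR, and 1 of 14504 genes in all. Without CT-WD 1, 2 of the 10 genes passed the adjusted level, Foxo1 (adjusted p = 0.022) and Trim63 (0.00545), in a fit where 42 of 15828 genes passed against 0 of 15458 with all libraries.

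The western diet in OE gave 0 of the 10 genes at the adjusted level in edgeR and in DESeq2, beside 0.00647% of all genes, and 0 of the 10 at an unadjusted p under 0.05, beside 4.2% of all genes. None of the 10 was free of overlap between its libraries, against 4.08% of all genes. Fbxo32 had the largest log2 fold change of the 10 in this comparison, 0.47, and the others lay between -0.12 and 0.16. The test of the difference between the diet responses of OE and CT gave 0 of the 10 genes at the adjusted level in edgeR and in DESeq2, where 0% and 3 of all genes passed. At an unadjusted p under 0.05 there were 4 of the 10, Foxo1, Trim63, Fbxo30 and Klf15, each with a lower response in OE, beside 5.92% of all genes. The median of the 10 differences was -0.19, beside -0.01 over all genes.

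On western diet OE against CT gave 2 of the 10 genes at the adjusted level, Trim63 and Eif4ebp1, both lower in OE, beside 0.725% of all genes. At an unadjusted p under 0.05 there were 6 of the 10, all lower, beside 16.9% of all genes, and these were Foxo1, Fbxo32, Trim63, Eif4ebp1, Bnip3 and Map1lc3a. The groups did not overlap for 3 of the 10, Trim63, Eif4ebp1 and Map1lc3a, each lower in OE, against 11.6% of all genes. The median log2 fold change was -0.46 over the 10 genes and 0.01 over all genes. Without CT-WD 1 the adjusted count was 6, in a fit where 1499 of 15828 genes passed against 112 of 15458 with all libraries. Without OE-WD 1 it was 3, beside 131 of 15415 genes. It was 0 without each of CT-WD 2, CT-WD 3, OE-WD 2, OE-WD 3 and OE-WD 4, where 13, 7, 4, 6 and 15 genes passed in all, so the calls over all genes rose and fell with the same libraries.

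On control diet OE against CT gave 2 of the 10 genes at the adjusted level, Fbxo32 and Eif4ebp1, both lower in OE, beside 2.67% of all genes. At an unadjusted p under 0.05 there were 3 lower, with Map1lc3a in addition, and 1 higher, Fbxo30, beside 15.9% of all genes. These 4 were also the ones whose groups did not overlap, against 15.5% of all genes. The median log2 fold change was -0.22 over the 10 genes and -0.00 over all genes. The adjusted count was 0 without each of CT-CTD 1, CT-CTD 2, CT-CTD 3, OE-CTD 2, OE-CTD 3 and OE-CTD 4, where 347, 107, 77, 121, 121 and 429 genes passed in all against 413 with all libraries, and 1 without OE-CTD 1, where 194 passed. The comparison of OE-WD with CT-WD shares the CT-WD libraries with that of CT-WD and CT-CTD, so a high CT-WD library enters both with opposite signs, and no relation between such comparisons is drawn. In bulk muscle, fewer cells of a type and less RNA per cell cannot be told apart.

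Among 16 further ubiquitin ligase genes of muscle, Cblb passed in OE against CT on western diet, and none of the 16 passed in the other comparisons. Cblb, a ligase that targets insulin receptor substrates in unloaded muscle, fell by 0.65 on the log2 scale (standard error 0.14, adjusted p = 0.0437 in edgeR), with means of 28.3 ± 2.44 CPM in CT (SD, n = 3) and 18.1 ± 1.93 CPM in OE (SD, n = 4), with every OE-WD library below every CT-WD library. The call was lost without CT-CTD 2 (adjusted p = 0.0527), CT-CTD 3 (0.0546), CT-WD 2 (0.117), CT-WD 3 (0.203), OE-CTD 1 (0.0651), OE-CTD 2 (0.0701), OE-WD 2 (0.155), OE-WD 3 (0.112) or OE-WD 4 (0.109), and over the other settings, of which 3 of 9 kept the call, the adjusted p ran from 0.00232 to 0.566. With unadjusted p under 0.05, the ligases numbered 1 higher and 0 lower in CT with diet, 0 in OE with diet, 2 lower in OE against CT on western diet, and 2 higher and 3 lower on control diet. Their median log2 fold changes in that order were 0.07, 0.03, -0.08 and -0.06. For this and the other lists the alternatives were run only on the genes named, so counts over a list are those of edgeR. Over all genes tested, the shares with an unadjusted p under 0.05 in the same order were 7.28%, 4.2%, 16.9% and 15.9% and the medians 0.01, 0.00, 0.01 and -0.00, and each list count, those of markers included, stands beside these.

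Of 19 further autophagy genes, 2 passed in OE against CT on control diet and none in the other comparisons. Wipi1, which binds the membrane on which autophagosomes form, rose by 0.35 on the log2 scale (standard error 0.07, adjusted p = 0.0136 in edgeR), with means of 61.1 ± 2.09 CPM in CT (SD, n = 3) and 77.8 ± 2.91 CPM in OE (SD, n = 4). Ctsl, a lysosomal protease, rose by 0.41 (standard error 0.10, adjusted p = 0.0386), with means of 72.8 ± 3.16 CPM in CT (SD, n = 3) and 96.4 ± 10.8 CPM in OE (SD, n = 4). Neither had overlapping groups, and the log2 fold changes of Map1lc3a and Bnip3 in the same comparison had the opposite sign without passing. Both calls end with a fold limit of 1.5 beside the adjusted level, since both differences are smaller than that. The call of Wipi1 was also lost without CT-CTD 2 (adjusted p = 0.0568) or CT-CTD 3 (0.058). That of Ctsl was lost without CT-CTD 1 (0.0541), CT-CTD 2 (0.139), CT-CTD 3 (0.166), OE-CTD 1 (0.0754), OE-CTD 2 (0.133), OE-CTD 3 (0.122), OE-WD 1 (0.0507) or OE-WD 3 (0.0602), and in limma without a filter (0.0867, the highest of its other settings, which began at 0.00428). Autophagy genes with an unadjusted p under 0.05 numbered 3 higher in CT with diet, 1 lower in OE with diet, 1 higher and 3 lower in OE against CT on western diet, and 3 higher on control diet. Their medians in that order were 0.03, -0.01, -0.03 and 0.02.

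Among 17 other target genes of Foxo factors, 2 passed, both in OE against CT on western diet. Pdk4, a kinase that shuts off pyruvate dehydrogenase when fat is burned, fell by 1.08 on the log2 scale (standard error 0.23, adjusted p = 0.0430 in edgeR), with means of 3505 ± 315 CPM in CT (SD, n = 3) and 1658 ± 673 CPM in OE (SD, n = 4). Gadd45a, a stress gene that is also raised by denervation, fell by 1.19 (standard error 0.24, adjusted p = 0.0345), with means of 20.5 ± 5.63 CPM in CT (SD, n = 3) and 8.998 ± 2.30 CPM in OE (SD, n = 4). All OE-WD libraries were below all CT-WD libraries for both. The call of Pdk4 was lost without CT-CTD 2 (adjusted p = 0.0533), CT-CTD 3 (0.0567), CT-WD 2 (0.142), CT-WD 3 (0.162), OE-CTD 1 (0.0593), OE-CTD 2 (0.0661), OE-CTD 3 (0.0647), OE-WD 2 (0.141), OE-WD 3 (0.0931) or OE-WD 4 (0.0935), and its adjusted p ran from 6.15e-05 to 0.566 over the other settings. That of Gadd45a was lost without CT-WD 3 (0.173), OE-CTD 2 (0.0542), OE-CTD 3 (0.0517), OE-WD 2 (0.122), OE-WD 3 (0.0931) or OE-WD 4 (0.0907), and ran from 7.28e-05 to 0.485, and for each of these genes 3 of 9 other settings kept the call. Targets with an unadjusted p under 0.05 numbered 5 higher in CT with diet, 1 higher in OE with diet, 1 higher and 5 lower in OE against CT on western diet, and 1 higher and 3 lower on control diet. Their medians were 0.05, 0.02, -0.11 and 0.03.

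A list of 18 genes held Foxo6 and genes for enzymes and partners that act on Foxo proteins, such as Akt kinases, Sirt deacetylases and 14-3-3 proteins. None of the 18 passed the adjusted level in edgeR. Those with an unadjusted p under 0.05 numbered 2 lower in CT with diet, 0 in OE with diet, 2 higher and 1 lower in OE against CT on western diet, and 1 higher and 3 lower on control diet. Foxo6, the remaining Foxo gene of the mouse, had the smallest unadjusted p of the list on western diet, at 7.03 ± 2.24 CPM in CT (SD, n = 3) and 12.7 ± 3.74 CPM in OE (SD, n = 4). OE against CT gave 0.85 on the log2 scale (standard error 0.26, adjusted p = 0.124), opposite in sign to that of Foxo1, and the adjusted p was 0.0337 with DESeq2 and 0.0119 without the filter on low counts, in a range up to 0.566. Stk4, which encodes a kinase that phosphorylates Foxo proteins under stress, had 0.38 (adjusted p = 0.139), and passed without CT-WD 1 (0.0311), while its other settings ran from 0.0876 to 0.599. The medians of the list were -0.03, 0.04, 0.00 and -0.09 in the 4 comparisons.

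The glucocorticoid receptor and genes that respond to it, with 12 of 13 tested and Mt2 below the filter, had the medians farthest from 0 of all 8 pathway lists in the 4 comparisons of a pair of groups. This list, like the others, was chosen with earlier results of these data known. Its rank among the lists and its counts are thus a description of these genes and no test of the list. In OE against CT on western diet, 10 of the 12 were lower at an unadjusted p under 0.05 and none higher, beside 16.9% of all genes in either direction, and their median log2 fold change was -0.68. The 2 that passed the adjusted level were Fkbp5, a co-chaperone of the receptor, and the metallothionein Mt1. Fkbp5 fell by 1.91 on the log2 scale (standard error 0.40, adjusted p = 0.0399 in edgeR), with means of 105 ± 52.6 CPM in CT (SD, n = 3) and 28.0 ± 7.38 CPM in OE (SD, n = 4). Mt1 fell by 1.21 (standard error 0.24, adjusted p = 0.0322), with means of 52.3 ± 19.5 CPM in CT (SD, n = 3) and 22.5 ± 6.92 CPM in OE (SD, n = 4). Neither gene had overlapping groups. The call of Fkbp5 was lost without CT-WD 2 (adjusted p = 0.170), CT-WD 3 (0.173), OE-CTD 1 (0.0593), OE-CTD 2 (0.0615), OE-CTD 3 (0.0591), OE-CTD 4 (0.0503), OE-WD 2 (0.141), OE-WD 3 (0.113) or OE-WD 4 (0.0964), and that of Mt1 without CT-WD 2 (0.0666), CT-WD 3 (0.173), OE-CTD 2 (0.0516), OE-WD 1 (0.0567), OE-WD 2 (0.104) or OE-WD 3 (0.0931). Over the other settings their adjusted p-values reached 0.566 with the replicate block and began at 6.03e-06 and 1.58e-05, with the call kept in 3 of 9 for each gene.

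On control diet the list had 2 genes lower in OE than in CT at the adjusted level and 4 at an unadjusted p under 0.05, with a median of -0.35. Fkbp5 fell by 2.29 on the log2 scale (standard error 0.40, adjusted p = 0.00976 in edgeR), with means of 96.0 ± 63.2 CPM in CT (SD, n = 3) and 19.7 ± 3.34 CPM in OE (SD, n = 4), and without CT-CTD 3, the highest library at 164.5 CPM, the log2 fold change was -1.65 and the call was lost (adjusted p = 0.0654), as it was in limma without a filter (0.116, the highest of its other settings, which began at 6.01e-08). Zbtb16, which encodes the zinc-finger factor PLZF, fell by 1.02 (standard error 0.15, adjusted p = 0.00575), with means of 86.8 ± 10.5 CPM in CT (SD, n = 3) and 42.7 ± 3.25 CPM in OE (SD, n = 4), a call kept in all 14 fits that left out a library and in all 9 other settings. With diet in OE, Zbtb16 rose by 1.23 (standard error 0.15, adjusted p = 0.00559) to 100.2 ± 20.9 CPM (SD, n = 4), the single gene of the 15458 that passed there. That call was lost without OE-CTD 1 (adjusted p = 0.0548), in limma without a filter (0.130) and without both replicates numbered 4 (0.108), in a range that began at 1.90e-11. CT-WD had 144.7 ± 32.6 CPM (SD, n = 3), and OE-WD against CT-WD gave -0.53 on the log2 scale (standard error 0.15, adjusted p = 0.111) with overlapping groups, so the reading of Zbtb16 by diet or by genotype turns on the names of CT-WD and OE-CTD. With diet in CT, 0 genes of the list passed in edgeR, 5 were higher at an unadjusted p under 0.05, and the median was 0.51. In OE with diet, 2 were higher at that level, and the median was 0.25. The receptor gene Nr3c1, named after its values were seen, had group means between 71.1 and 93.2 CPM.

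Of 11 genes of denervation and fibre loss that were tested, Gadd45a alone passed, in OE against CT on western diet (adjusted p = 0.0345 in edgeR). Its call was lost without CT-WD 3 (0.173) and without OE-CTD 2 (0.0542), OE-CTD 3 (0.0517), OE-WD 2 (0.122), OE-WD 3 (0.0931) or OE-WD 4 (0.0907). With unadjusted p under 0.05, the list had 3 higher and 2 lower in CT with diet, 0 in OE with diet, 1 higher and 3 lower in OE against CT on western diet, and 1 higher and 3 lower on control diet, with medians of 0.03, -0.04, 0.00 and -0.05. None of 12 genes of translation initiation beside Eif4ebp1 passed, and at an unadjusted p under 0.05 they numbered 1 higher, 1 lower, 4 lower and 1 lower in the same order, with medians of -0.03, 0.05, -0.10 and -0.13. Rheb, the GTPase that activates mTORC1, and Rps6, a ribosomal protein phosphorylated below it, had the smallest p-values of that list on western diet, with log2 fold changes of -0.25 (adjusted p = 0.153) and -0.26 (adjusted p = 0.158) in OE against CT, and both passed without CT-WD 1 (0.0241 and 0.0405), while their other settings ran from 0.0876 to 0.591 and from 0.0827 to 0.566. None of 10 genes of branched-chain amino acid breakdown and other Klf15 targets passed either, and at an unadjusted p under 0.05 they numbered 1 higher, 1 lower, 2 lower, and 2 higher with 1 lower, with medians of 0.07, -0.02, -0.09 and 0.01. Gpt2, an alanine aminotransferase, and Prodh, which starts proline breakdown, had -0.44 (adjusted p = 0.112) and -0.70 (adjusted p = 0.129) in OE against CT on western diet. Without CT-WD 1 they passed, with adjusted p-values of 0.00502 and 0.0382, as they did with DESeq2 (0.0375 and 0.0491) and without the filter on low counts (0.0322 and 0.0157), in ranges up to 0.574 and 0.566.

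Markers of other cell types differed between the same libraries, and their part in the values above was not tested. Summed over 5 fibroblast markers, with Dcn the most abundant, the level was 70.0, 64.2 and 50.3 FPKM in CT-CTD 1 to 3, 152, 57.5 and 55.6 FPKM across CT-WD 1 to 3, 144, 169.5, 158 and 101 FPKM across OE-CTD 1 to 4 and 113, 248, 146 and 116 FPKM in OE-WD 1 to 4. Fibroblast markers were thus high in CT-WD 1 and in all OE libraries, and low in CT-WD 2, CT-WD 3 and all CT-CTD libraries. CT-WD 2 and CT-WD 3 were the libraries with the highest Foxo1, Trim63 and Fbxo32, whereas every CT-CTD library had lower levels of these genes. Tendon markers (5 genes, with Fmod the most abundant) had a like pattern, with 77.6, 35.7 and 55.5 FPKM in CT-CTD, 153, 29.6 and 37.7 FPKM in CT-WD, 133, 193, 161 and 105 FPKM in OE-CTD and 132, 269.9, 178 and 102 FPKM in OE-WD. Macrophage markers (8 genes, with Lyz2 the most abundant) summed to 50.7, 29.8 and 28.47 FPKM in CT-CTD, 82.4, 42.9 and 36.7 FPKM in CT-WD, 57.1, 65.7, 84.9 and 53.4 FPKM in OE-CTD and 49.0, 78.7, 49.6 and 52.8 FPKM in OE-WD. No marker of these 3 lists passed the adjusted level in edgeR in a comparison. At an unadjusted p under 0.05, OE against CT on control diet had 5 of 5 fibroblast, 3 of 5 tendon and 7 of 8 macrophage markers higher, beside 15.9% of all genes in either direction, and on western diet 2, 1 and 0. With diet in CT 1 fibroblast and 2 macrophage markers were higher, and in OE none.

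Endothelial cells are those in which the promoter of the transactivator is active. Their markers (9 genes, with Cdh5 the most abundant) summed to 95.7, 94.4 and 92.3 FPKM in CT-CTD, 120.01, 107 and 107 FPKM in CT-WD, 119.8, 119, 117 and 101 FPKM in OE-CTD and 122, 119, 131 and 119 FPKM in OE-WD. Between OE and CT on each diet there were 1 of 9 markers higher in OE at the adjusted level and 5 of 9 at an unadjusted p under 0.05 in both comparisons. With diet, 2 were higher and 1 lower in CT and 1 was higher in OE at that level. Markers of the labelled tissue were abundant throughout, with 44555 to 61135 FPKM over 9 myofibre genes (Acta1 the most abundant), 1601 to 2416 FPKM over 8 slow fibre genes (Myl3) and 44483 to 60289 FPKM over 10 fast fibre genes (Tnnt3). The myofibre sums were highest in OE-CTD 4 and OE-WD 4. Satellite cell markers (4 genes, with Sdc4 the most abundant) summed to 24.2 and 35.3 FPKM in CT-WD 2 and CT-WD 3 and to 12.5 to 18.1 FPKM in all other libraries. Sdc4 alone gave 23.2 and 34.5 FPKM of the former sums, while Pax7 had 0.163 and 0.108 FPKM there, among its lowest values, so the high sums are those of Sdc4 and not of the list. Sums ran from 59.7 to 234 FPKM for 7 adipocyte genes (Fabp4), from 170.5 to 523 FPKM for 5 blood genes (Hba-a1), from 1.29 to 63.4 FPKM for 5 epidermal genes (Krt5) and from 24.9 to 38.9 FPKM for 4 heart genes (Myh6), of which Myl7 had 0 counts in every library. None of the myofibre, slow, fast, satellite, adipocyte, blood, epidermal and heart markers tested passed the adjusted level in edgeR. At an unadjusted p under 0.05 the counts that were not 0 in OE against CT on western diet were 2 slow fibre, 1 adipocyte and 1 heart marker higher, and 1 fast fibre and 1 satellite marker lower. On control diet they were 3 slow fibre, 1 myofibre, 1 adipocyte and 1 epidermal marker higher, and 1 fast fibre and 1 adipocyte marker lower, and the 8 slow fibre markers had a median of 0.24. With diet they were 1 epidermal and 1 satellite marker higher in CT and 1 epidermal marker higher in OE.

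Across the 14 libraries the 10 genes form 45 pairs, which were compared by the correlation of their log2 CPM with p-values from 100000 permutations. An adjusted p under 0.05 over the 45 pairs was reached by 14 pairs, all with positive Pearson r, and the lowest r of any pair was -0.412. Libraries of a group are not exchangeable with those of another, so the pairs were also compared after subtraction of group means, and 2 of the 45 then passed. These permutations moved the deviations over all 14 libraries, although the subtraction ties deviations within a group and their spread differs between groups. The p-values of deviations can thus be too small, and a pass among them is a description. Fbxo32 and Trim63 passed both ways, with r = 0.871 (permutation p = 1e-05, the smallest that the permutations can give, adjusted p = 0.00045) and Spearman rho = 0.736 (permutation p = 0.00365, adjusted p = 0.0411). Their r was 0.777 without CT-WD 2 and CT-WD 3, the libraries farthest from the median of Fbxo32, and 0.874 for the deviations from group means (permutation p = 0.00011, adjusted p = 0.00495). The deviations were not compared without single libraries, and in OE-CTD the order differed, with OE-CTD 3 lowest for Fbxo32 (241 CPM) and above OE-CTD 1 and OE-CTD 2 for Trim63 (264 CPM). The other pair that passed for deviations was Foxo1 with Foxo3, with r = 0.747 (permutation p = 0.00153, adjusted p = 0.0344), beside r = 0.605 for the levels (adjusted p = 0.0594) and rho = 0.741 (permutation p = 0.00358, adjusted p = 0.0411).

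Foxo1 and Trim63 had the highest r of all pairs, 0.886 (permutation p = 0.001, adjusted p = 0.0081), with rho = 0.662 (permutation p = 0.0125, adjusted p = 0.0678). This relation rests on CT-WD 2 and CT-WD 3, since r was 0.394 without them, and the r of the deviations was 0.724 (adjusted p = 0.0592). Foxo1 with Fbxo32 (r = 0.715) and with Eif4ebp1 (r = 0.706) rest on the same libraries, with 0.286 and 0.222 without them. The same holds for Trim63 with Klf15, Eif4ebp1, Bnip3 and Map1lc3a, whose r of 0.639, 0.764, 0.682 and 0.688 became 0.201, 0.382, 0.241 and 0.292. Eif4ebp1 was tied to Fbxo32 (r = 0.869, permutation p = 9e-05, adjusted p = 0.00202, rho = 0.873), to Map1lc3a (r = 0.849, permutation p = 0.00019, adjusted p = 0.00285, rho = 0.811) and to Bnip3 (r = 0.817, permutation p = 0.00048, adjusted p = 0.0054, rho = 0.719), and r stayed at 0.735, 0.785 and 0.652 without CT-WD 2 and CT-WD 3. For deviations these 3 pairs had r of 0.556, 0.586 and 0.683 and did not pass (adjusted p = 0.133, 0.130 and 0.0592). Bnip3 with Map1lc3a (r = 0.725), Fbxo32 with Bnip3 (r = 0.749) and Fbxo32 with Map1lc3a (r = 0.721) complete the 14. Fbxo30 had a negative r with 8 of the other 9 genes, none of which passed.

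Over the same 14 libraries, the genes whose log2 CPM was most like that of each of 3 members were sought among 9406 genes with a mean of at least 5 CPM, as a description without a test. For Foxo1 they were the amino acid transporter gene Slc7a8 (r = 0.964), the aminotransferase gene Gpt2 (r = 0.947) and Ankrd9 (r = 0.920). For Fbxo32 they were the mitochondrial carrier gene Ucp3 (r = 0.958), Klhl38 (r = 0.946) and Shisa2 (r = 0.944). For Trim63 they included the deubiquitinase gene Zranb1 (r = 0.941) and Tgif1 (r = 0.939). These points share groups, depth and scaling, and the search was not repeated without CT-WD 2 and CT-WD 3.

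The promoters of the 10 genes were searched for the letters bound by Foxo factors, by the glucocorticoid receptor and by E-box factors such as Myc. In the RefSeq promoter table (build GRCm38.p6, 250 bases before to 50 after the start of each gene) 6 of the 10 genes matched, and Fbxo32, Foxo4, Eif4ebp1 and Map1lc3a had no entry. The start is that of RefSeq and can differ from the gene positions given above. For Fbxo30 the 250 bases before it, 11281337 to 11281586, lie inside the gene as positioned above. Those of Foxo1, Foxo3 and Bnip3 overlap the gene in part. Both strands were searched, and the motifs were chosen with the sequences at hand. The Foxo motif TGTTTAC was in 3.65% of the 32851 promoters and, among the 6, in Trim63 alone, at -194 to -188 from the start. A second Foxo motif, CAAAACAA, was in 2.51% of all and in none of the 6. A glucocorticoid receptor motif of GNACA and TGTNC set 3 bases apart was in 0.475% of all and, among the 6, in Trim63 alone, at -208 to -196. Its stricter form, AGAACA and TGTTCT set 3 bases apart, was in 0.00913% of all and in none of the 6. The hexamer AGAACA was in 19% of all and, among the 6, in Trim63 alone, where it overlaps the receptor motif.

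The Foxo and receptor motifs stood together in 5 of the 32851 promoters (0.0152%), Trim63 among them. The 250 bases before its start are shown because Trim63 had the largest difference of the 10 genes and holds both motifs with a single base between them. They lie at chr4:134314870-134315119 on the plus strand of GRCm38.p6, and capitals mark the receptor motif and then the Foxo motif.
Trim63: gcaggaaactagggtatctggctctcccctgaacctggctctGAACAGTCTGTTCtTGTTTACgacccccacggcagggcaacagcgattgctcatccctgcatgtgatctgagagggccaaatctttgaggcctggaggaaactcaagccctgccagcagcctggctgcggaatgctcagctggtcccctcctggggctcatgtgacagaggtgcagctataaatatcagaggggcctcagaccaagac
The E-box CACGTG, which Myc with Max and other factors bind, was in 7.15% of all promoters and, among the 6, in Klf15 and Bnip3. Klf15 had 3 copies, at -228 to -223, -172 to -167 and -3 to 2, and 3 or more copies were found in 0.0883% of all promoters. Bnip3 had 1 copy, at -108 to -103. A match says that the letters are present in this window, and binding was not measured in these samples.

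The positions given are those of mm10, the same assembly as GRCm38. Fbxo32 overlaps Gm15943 on the opposite strand, with a mean of 3.89 CPM against 492 CPM for Fbxo32. Bnip3 overlaps the pseudogene Gm18258 (0.928 CPM) and the antisense gene Gm45507 (0 CPM) on the opposite strand, and Foxo1 overlaps Gm38034 (0.00937 CPM) and Gm20402 (0 CPM). Whether reads were counted by strand is not stated in the sources used here, and the neighbours' counts are small beside those of the 10 genes.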

How the data were processed

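Skeletal muscle RNA of 14 mouse libraries was sequenced, and the authors deposited gene counts (HISAT2 2.0.5, featureCounts 1.5.0-p3, mm10) without normalization. The authors also deposited FPKM, which scale counts by gene length and by a library total of 79.9% to 98.0% of the summed counts. The strand setting is not given in the sources used. The members and the gene lists were chosen with earlier results of these data known.

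Counts were scaled by TMM, filtered with filterByExpr and tested with the quasi-likelihood test of edgeR 4.0.16 (limma 3.58.1, R 4.3.3) in 1 model with a mean for each group. The p-values were adjusted over the 15458 genes tested by the Benjamini-Hochberg method, two-sided, and a gene was called at an adjusted p under 0.05. The filter removed 0.0467% to 0.0694% of a library's counts, and the biological coefficient of variation was 17.0%. Correlations used log2 CPM with a prior count of 2 and two-sided permutation tests in Python 3.11.15 (numpy 2.4.6, pandas 2.3.3). Intervals and p-values cover these libraries only.

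Alternatives were a fold limit of 1.5, DESeq2 1.42.0, RLE scaling, no filter, a fit of only the groups compared, the replicate number as a block (in a fit of only the groups compared and the numbers they share), limma on log2(FPKM + 1) and log2(FPKM + 0.1), and each library left out. Leaving out OE-CTD 4 and OE-WD 4 together, and running the alternatives on list genes, were chosen after seeing the data. As a check of pairing, deviations from group means were correlated across genes between libraries with the same number. In CT-WD and CT-CTD these were 0.385, 0.123 and 0.203, all over 0.1, so the numbers were taken as paired there. The main model does not hold this pairing, which entered only through the replicate block. The tests were checked on simulated data, and no outcome of that check is given or used here.

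Named genes were all 10 members. From each list, every gene with an adjusted p under 0.05 was named, at most 6, and where none passed, the 2 with the smallest unadjusted p in OE-WD against CT-WD. For Foxo1, Fbxo32 and Trim63 genes were named from the 3 most alike. Of the 54495 gene identifiers shared with the GRCm38 annotation, 98.3% had the same position.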

Additional observations from a re-analysis of the deposited data

Results flagged for a closer look

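In groups of 4 libraries, 76 sets of values were examined for a library far from the other 3, with the gap to its neighbour as a share of the whole range over Dixon's critical value for 4 values, and 5 sets had one. Chance gives about 1 in 20 groups. Of the 20 sets for the 10 genes 2 had one. Foxo3 was 37.7 CPM in OE-CTD 4, above the other OE-CTD libraries. Trim63 was 398 CPM in OE-WD 1, above the other OE-WD libraries. Among the 28 sets of list genes, Zbtb16 was 131 CPM in OE-WD 1, above the other OE-WD libraries. Among 26 sets of summed markers, endothelial markers were 101 FPKM in OE-CTD 4, below the other OE-CTD libraries, and macrophage markers were 78.7 FPKM in OE-WD 2, above the other OE-WD libraries. The groups of 3 CT libraries were not examined in this way.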

How the results depend on the processing

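Over the alternatives, 1314 values of single genes kept their direction and their side of the threshold, 125 kept the direction and lost the call, 30 kept the direction and gained one, and 39 changed sign. The causes were not tested. Groups of 3 and 4 libraries limit which differences can be seen, and the largest shift of the median of all genes was 0.03 on the log2 scale. With diet in CT, the number of the 10 genes called moved from 0 to 1 with DESeq2 (29 of 13287 genes in all) and to 3 with no filter on low counts (93 of 27899), and ran from 0 to 2 with a library left out. For OE-WD against CT-WD it moved from 2 (112 of 15458 genes called in all) to 5 with DESeq2 (557 of 13828) and 5 with no filter (560 of 27899). It was 0 with only the groups compared (4 of 14860) and with the replicate block (0 of 14683). It was also 0 with limma and no filter (6 of 27899) and without both replicates numbered 4 (5 of 15356). With limma on log2(FPKM + 0.1) it was 1 (38 of 15458), and it ran from 0 to 6 with a library left out, the 6 without CT-WD 1. For OE-CTD against CT-CTD it moved from 2 (413 of 15458 genes in all) to 1 (Fbxo32) with the fold limit. It was 3 with the replicate block, whose fit also lacks OE-CTD 4 (757 of 14655). In the 3 limma fits it was 0, where 230 of 15458, 260 of 15458 and 90 of 27899 genes passed in all. Without both replicates numbered 4 it was 1, beside 555 of 15356 genes, and it ran from 0 to 2 with a library left out. For the interaction it moved from 0 to 1 with no filter (29 of 27899 genes in all). In OE with diet it was 0 in every setting run. The 14 correlated pairs became 2 for deviations from group means.

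Values that changed sign were small. In OE with diet, Eif4ebp1 was 0.0027, 0.0031 and 0.0027 in limma's fits to log2(FPKM + 1), log2(FPKM + 0.1) and without a filter. Foxo3 in OE-CTD against CT-CTD was -0.14 with the replicate block and -0.15 without both replicates numbered 4, and the interaction of Fbxo32 was 0.0487 and 0.0903. When libraries were left out singly, CT with diet gave -0.0926 to 0.0574 for Foxo4, -0.0250 to 0.219 for Bnip3 and -0.11 to 0.26 for Map1lc3a. OE with diet gave -0.0280 to 0.336 for Foxo3, -0.0908 to 0.243 for Trim63, -0.10 to 0.13 for Klf15 and -0.0462 to 0.0821 for Eif4ebp1. OE-WD against CT-WD gave -0.19 to 0.14 for Foxo3 and -0.121 to 0.0299 for Fbxo30. OE-CTD against CT-CTD gave -0.15 to 0.11 for Foxo3 and -0.132 to 0.0221 for Foxo4. The interaction gave -0.22 to 0.15 for Foxo3, -0.357 to 0.0863 for Fbxo32 and -0.363 to 0.00809 for Map1lc3a.

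The replicate block is a pairing by number. Its fit also holds only the groups compared, and it lacks the replicate numbered 4 where OE is compared with CT. Between OE and CT its moves thus cannot be put down to the block alone. For the diets, fits of the same groups without the block called 1 of 14653 genes in OE and 0 of 14504 in CT. With the block these counts were 53 and 1. Same-number correlations were 0.071 to 0.338 for OE-WD with OE-CTD, -0.230 to -0.065 for OE-WD with CT-WD and -0.122 to 0.046 for OE-CTD with CT-CTD, and since not every pair was over 0.1 these numbers were not taken as pairs. In OE-WD with OE-CTD, 3 of 4 pairs were over 0.1, with the highest value for the replicates numbered 4, which also share the highest mitochondrial shares and the lowest scaling factors. The block moved the genes called there from 1 to 53 of 14653, with 0 of the 10 genes among them. For CT-WD against CT-CTD, where the numbers were taken as paired, the block gave 1.23 for Trim63 (adjusted p = 0.395 in edgeR), 0.82 for Foxo1 (0.629) and 0.84 for Klf15 (0.578), with 0 of the 10 genes called.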
